A study of Homo sapiens with 12 samples.

Results

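MX1, MX2, RSAD2, BST2, IFITM1, IFI6, IFI27, IFI35, IFI44 and IFI44L are 10 human genes that interferon is known to induce and whose products, for the most part, act against viruses. They were chosen by name, and each was read from the probe set annotated with that symbol alone. The rule took the probe set with the highest mean over the 12 arrays where a gene had several, but each of the 10 genes had exactly 1 such probe set. They are 10 of 18404 named genes in the deposited table. The names were grouped with earlier results of these arrays known, so the counts below describe the 10 genes and are not independent evidence for them.

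The study measured RNA of A375 and A2058, human melanoma cell lines that both carry BRAF V600E, on Affymetrix arrays. Cells received either vemurafenib, an inhibitor of mutant BRAF, or the solvent DMSO alone. Each line was measured under both conditions, which gave 4 groups of 3 arrays. The treatment text, attached to every sample, describes 1 μM vemurafenib for 72 hours with renewal every 24 hours, and an equal volume of DMSO for the controls, but it names A375p cells only. The A375 samples carry A375p as their source. The labels do not say that the 3 arrays of a group came from separate cultures, so p-values measure the spread between arrays, which may be technical. A difference between the lines is one between A375 and A2058 alone, since no further line was measured.

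Values are the deposited log2 expression values, which ran from 3.24 to 13.08, with array medians of 5.19 to 5.30 and lower quartiles of 4.37 to 4.41. A step of 1 is a 2-fold difference, and differences near the bottom of this scale are compressed. Within groups the arrays correlated closely, except that A375 vemurafenib replicate 1 stood apart from replicates 2 and 3, with a mean r of 0.9940 over all genes. Among the 10 genes that array had the lowest A375 vemurafenib value for 7 and the highest for 1, and its distance from the mean of the other two arrays ran from -0.40 for RSAD2 to 0.18 for IFI27. Without that array all 10 genes were still called higher with vemurafenib in A375. Markers of other cell types were read as a check of the cultures. The mean of 9 melanocyte lineage genes lay between 6.66 and 6.73 in A375 with DMSO and 6.84 and 6.93 with vemurafenib, and in A2058 between 8.22 and 8.28 with DMSO and 9.41 and 9.43 with the drug. With vemurafenib in A375, 4 of the 9 were called higher and 2 lower, against 17.7% and 19.3% of all genes. The 2 were SOX10, at -0.15, and S100A1, at -0.67. In A2058, 7 of the 9 were called higher and 0 lower, against 14.6% and 12.5% of all genes. There TYRP1, PMEL and MLANA rose by 3.26, 2.43 and 2.33. In A375 with DMSO the pigment genes TYR, PMEL and MLANA had means of 4.57, 4.99 and 4.44, while SOX10, S100B, MITF and S100A1 had means of 9.53, 9.46, 8.35 and 7.33. The mean of 11 leukocyte markers lay between 4.77 and 5.08 on every array, and none of them rose with vemurafenib in either line, while LYZ fell in both. None of 4 measured plasmacytoid dendritic cell markers (CLEC4C, IL3RA, TCL1A and GZMB) passed the test in either line or had an unadjusted p under 0.05 (limma), and their array means lay between 4.49 and 4.68. Of 7 fibroblast markers, LUM, PDGFRB and DCN rose with vemurafenib in A375, by 2.15, 0.37 and 0.19, and 4 were not called. The array mean of the list in A375 went from 5.04 to 5.12 with DMSO to 5.42 to 5.55 with the drug. LUM fell in A2058, at -0.41. Of 7 epithelial markers, KRT8, KRT18 and KRT5 fell in A375, with array means of 5.91 to 5.94 with DMSO and 5.48 to 5.71 with the drug, and KRT18 fell in A2058. None of 6 endothelial markers passed the test in A375 or had an unadjusted p under 0.05 there, and KDR fell in A2058. The part of these markers in the results below was not tested.

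Type I interferons bind the receptor pair IFNAR1 and IFNAR2, which signals through the kinases JAK1 and TYK2. This leads to ISGF3, a complex that contains IRF9 and binds the interferon stimulated response element (ISRE), a pair of GAAA blocks spaced by a pair of bases, in the promoters of its target genes. Interferon gamma acts on many of its own target genes through another element, the gamma activated site (GAS). The target genes act at several steps of infection. MX1 and MX2 are dynamin-like GTPases that trap viral components, RSAD2 (viperin) makes a nucleotide that stops viral RNA synthesis, BST2 (tetherin) holds budding virions on the cell surface, and IFITM1 hinders fusion of the viral and cell membranes. IFI6 and IFI27 are small hydrophobic relatives of each other, IFI35 is a leucine zipper protein that binds NMI, and IFI44 and IFI44L are paralogues.

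The stretches of promoter sequence that hold these elements are shown because they describe the genes by a feature that the arrays did not measure. RefSeq start windows on GRCh38.p14, from 250 bases before to 50 bases after each start, were read for all of the genes but MX2, in 14 windows of 9 genes, since several genes have more than 1 start. The ISRE string, which is GAAA, any 2 bases and GAAA again, was searched on both strands. It occurred in the windows of 8 of the 9 genes and in 11 of the 14 windows, against 3.57% of 35116 windows of the same length and 4.38% of 27305 genes in the whole table. The windows of IFI44 overlap each other, as do those of IFI27, so the same matches count in more than 1 window. Capitals mark the matches. The stretches are a selection, 1 for each gene, of matches that lie wholly before the start, and MX1 and IFITM1 hold a further match each that lies at or after a start. Each stretch is written 5′ to 3′ on the strand of its gene, so a match on the other strand appears as a pair of TTTC blocks.
MX1, chr21:41431839-41431878, plus strand: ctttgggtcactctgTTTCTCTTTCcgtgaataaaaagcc
RSAD2, chr2:6877617-6877656, plus strand: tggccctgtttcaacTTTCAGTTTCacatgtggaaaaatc
BST2, chr19:17405730-17405775, minus strand: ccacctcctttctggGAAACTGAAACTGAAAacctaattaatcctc
IFITM1, chr11:313985-314024, plus strand: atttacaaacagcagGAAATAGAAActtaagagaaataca
IFI6, chr1:27672261-27672363, minus strand: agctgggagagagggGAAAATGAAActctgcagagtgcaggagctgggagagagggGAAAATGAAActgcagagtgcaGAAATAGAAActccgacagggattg
IFI27, chr14:94110613-94110665, plus strand: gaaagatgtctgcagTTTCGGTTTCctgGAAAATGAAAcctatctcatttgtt
IFI44, chr1:78649756-78649788, plus strand: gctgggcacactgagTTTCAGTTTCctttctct
IFI44L, chr1:78620269-78620399, plus strand: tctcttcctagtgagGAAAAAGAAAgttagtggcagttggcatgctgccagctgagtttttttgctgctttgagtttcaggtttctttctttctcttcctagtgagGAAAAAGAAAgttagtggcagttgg

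IFI6 held 3 matches of this string in its window, the largest number among the 14 windows, and IFI44L held 2 in a repeated stretch. The 2 matches of BST2 overlap, sharing a GAAA block. IFI35 had no match of the ISRE string in its window. It held a variant with a spacer of 1 base, GAAANGAAA, which was searched after the sequences had been seen.
IFI35, chr17:43006753-43006783, plus strand: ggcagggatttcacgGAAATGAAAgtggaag
That shorter string occurred in the windows of 4 of the 9 genes (MX1, RSAD2, IFI35 and IFI44), against 3.87% of all genes. The GAS string TTCNNNGAA occurred in 5 of the 9 (MX1, BST2, IFITM1, IFI27 and IFI35), against 9.38% of all genes. Each of its matches overlaps a match of the other strings, except the BST2 match from -58 to -50. The counts of the strings are therefore not independent of each other. A match of letters is a description and does not show binding, and the arrays did not measure binding.

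**Figure D1:**
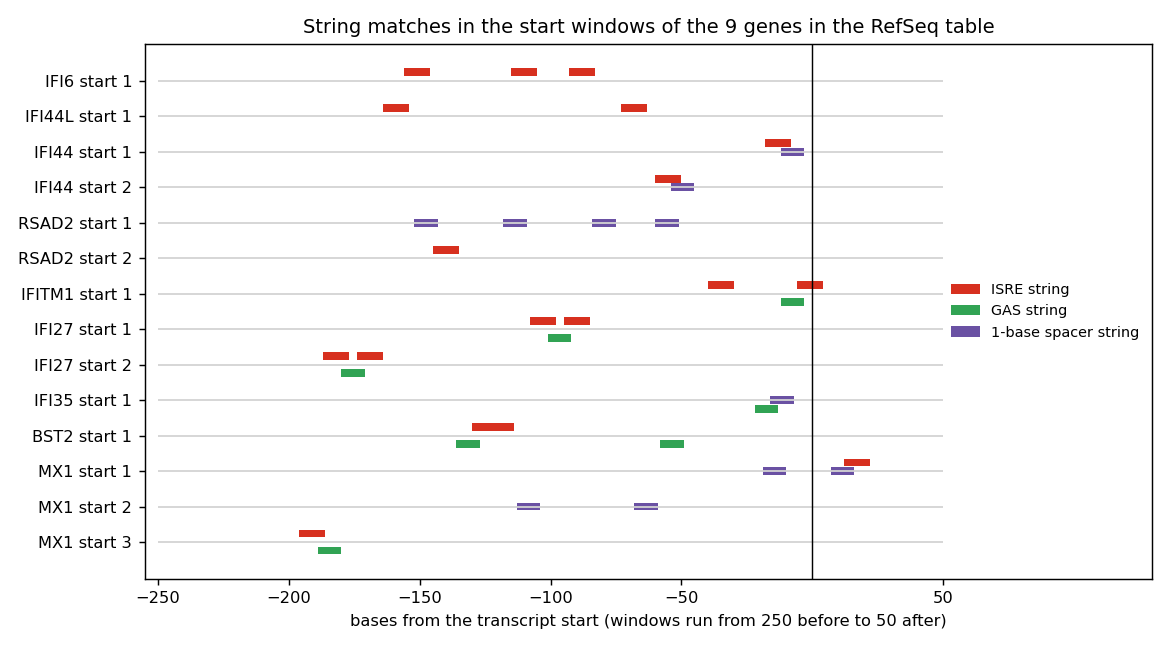
Positions of the 3 searched strings in the 14 RefSeq start windows of 9 genes, in bases from the start (x axis), with 1 line for each window. The ISRE string is seen in 11 of the 14 windows, of which those of IFI44 overlap each other, as do those of IFI27. IFI6 holds 3 matches upstream of its start.

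In A375, vemurafenib came with higher RNA of all 10 genes. All 10 passed the test (limma, Benjamini-Hochberg adjusted p under 0.05 over 18404 genes), and for each gene the 3 drug arrays lay above the 3 DMSO arrays. Across all genes, 17.7% were called higher and 19.3% lower in this comparison, and 21.0% had drug arrays that all lay above the DMSO arrays. The median change of the 10 was 3.25, against 0.0042 over all genes, and 9 of the 10 rose at least 2-fold, against 1.93% of all genes. In A2058, 4 of the 10 were called higher and 1 lower, against 14.6% and 12.5% of all genes, with a median change of 0.053 against 0.0064. None of the 10 rose 2-fold there, as 0.837% of all genes did. The response differed between the lines for 9 of the 10, all with the larger rise in A375, where 13.1% of all genes had a difference in that direction. MX2 was the exception.

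**Figure D2:**
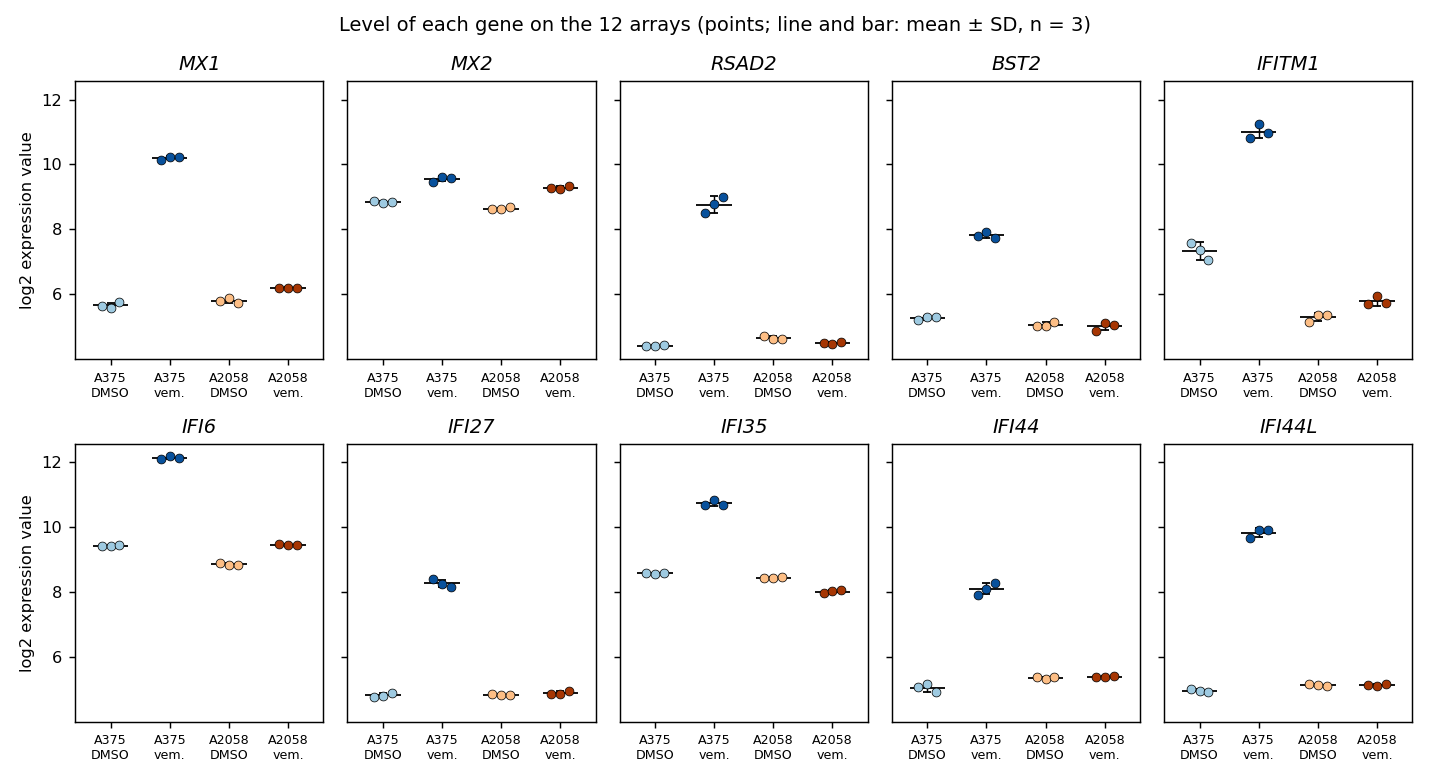
Deposited log2 expression (y axis) of the 10 genes on each of the 12 arrays, by group; points are arrays and bars are the mean ± SD of 3. A375 with vemurafenib has the highest values for every gene, and for MX2 the A2058 drug arrays, at 9.25 to 9.33, come close to it.

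MX1, the cytoplasmic GTPase that acts on influenza and other viruses, read 5.65, 5.58 and 5.75 in A375 with DMSO and 10.14, 10.24 and 10.24 with vemurafenib. The A2058 arrays read 5.79, 5.88 and 5.73 with DMSO and 6.20, 6.18 and 6.21 with the drug. The drug arrays lay above the DMSO arrays in both lines, by a wide gap in A375 and a narrow one in A2058. The change was 4.55 ± 0.053 (SE, 3 arrays in each group) or 23.3-fold in A375, with an adjusted p of 8.58e-15, which was rank 7 among all rises. In A2058 it was 0.40 ± 0.053 or 1.32-fold, with an adjusted p of 8.54e-05. The difference between the responses was 4.15 ± 0.075.

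MX2, its nuclear envelope relative known for blocking HIV-1 and herpesviruses, was the only one of the 10 whose response was not called different between the lines. It read 8.86, 8.81 and 8.84 with DMSO and 9.47, 9.60 and 9.59 with vemurafenib in A375. In A2058 it read 8.62, 8.63 and 8.68 with DMSO and 9.26, 9.25 and 9.33 with vemurafenib. All 4 groups lay apart, in the order A2058 DMSO, A375 DMSO, A2058 vemurafenib and A375 vemurafenib. The rise was 0.72 ± 0.045 or 1.65-fold in A375 (adjusted p 4.27e-08) and 0.64 ± 0.045 or 1.56-fold in A2058 (adjusted p 2.68e-07). The difference between these was 0.079 ± 0.063, with a 95% interval of -0.059 to 0.22 and an adjusted p of 0.448, so that a difference of more than 0.22 lies outside the interval. MX2 and MX1 are next to each other on chromosome 21.

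RSAD2, the enzyme viperin, read 4.42, 4.40 and 4.44 with DMSO in A375, near the lower quartile of the arrays, and 8.49, 8.78 and 9.0 with vemurafenib. It rose by 4.34 ± 0.094 or 20.2-fold, with an adjusted p of 1.58e-12. Its 3 drug arrays had an SD of 0.255, the widest of the 10 genes in that group. In A2058 it read 4.71, 4.61 and 4.62 with DMSO and 4.51, 4.46 and 4.54 with the drug. The A2058 drug arrays all lay below the DMSO arrays, as they did for 18.7% of all genes. The change of -0.15 ± 0.094 (95% interval -0.35 to 0.058) did not pass the test, with an adjusted p of 0.332. That call depended on the setting: the adjusted p ran from 0.0265 to 0.591 over the alternatives and was under 0.05 in 3 of them, with array weights, with the A2058 arrays alone in the fit, and without A375 vemurafenib replicate 1. The difference between the responses was 4.49 ± 0.13.

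BST2, the tether of budding virions, read 5.21, 5.31 and 5.30 in A375 with DMSO and 7.79, 7.92 and 7.75 with vemurafenib. Its rise was 2.54 ± 0.067 or 5.83-fold, with an adjusted p of 1.09e-11. The A2058 arrays read 5.03, 5.01 and 5.16 with DMSO and 4.88, 5.12 and 5.04 with the drug. These overlapped, and the difference of -0.055 ± 0.067 did not pass the test (adjusted p 0.684). The responses differed by 2.60 ± 0.10.

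IFITM1, which acts at viral fusion, was the gene with the largest gap between the lines before treatment. In A375 it read 7.59, 7.38 and 7.06 with DMSO and 10.82, 11.24 and 10.98 with vemurafenib. In A2058 it read 5.14, 5.37 and 5.35 with DMSO and 5.70, 5.94 and 5.72 with vemurafenib. Its 4 groups did not overlap. The rise was 3.67 ± 0.13 or 12.7-fold in A375 (adjusted p 2.23e-10) and 0.50 ± 0.13 or 1.41-fold in A2058 (adjusted p 0.0134), and the difference of the responses was 3.17 ± 0.19. The A2058 call, though not the size of the change, depended on single arrays: leaving out A2058 DMSO replicate 1 gave 0.43 with an adjusted p of 0.0649, and leaving out A2058 vemurafenib replicate 2 gave 0.42 with 0.0643. IFITM1 lies beside its near relatives IFITM2 and IFITM3 on chromosome 11, and similar sequences can share probes, so its values may hold some of their signal.

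IFI6, a protein of the endoplasmic reticulum, had high values in all groups. It read 9.42, 9.41 and 9.46 in A375 with DMSO and 12.09, 12.18 and 12.14 with vemurafenib. In A2058 it went from 8.89, 8.82 and 8.84 to 9.47, 9.45 and 9.44, so that the A2058 drug arrays overlapped the A375 DMSO arrays. The A375 rise was 2.70 ± 0.038 or 6.51-fold (adjusted p 4.72e-14), and the A2058 rise was 0.60 ± 0.038 or 1.52-fold (adjusted p 1.02e-07). The responses differed by 2.10 ± 0.054, the smallest of the 9 called differences.

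IFI27, its relative, read 4.77, 4.81 and 4.89 in A375 with DMSO and 8.39, 8.26 and 8.16 with vemurafenib. This was a rise of 3.45 ± 0.056 or 10.9-fold, with an adjusted p of 1.71e-13. In A2058 the values were 4.86, 4.82 and 4.82 with DMSO and 4.87, 4.87 and 4.95 with the drug. The drug arrays lay just above the DMSO arrays, but the change of 0.063 ± 0.056 did not pass the test (adjusted p 0.531). IFI6 was called higher in A2058 and IFI27 was not, but the change of IFI6 was not tested against that of IFI27. The A2058 means of IFI27, 4.83 with DMSO and 4.90 with the drug, lay below the array medians of 5.19 to 5.30. Differences are compressed near the bottom of the scale, so a rise of IFI27 could be understated there. The A2058 means of RSAD2, BST2 and IFI44L also lay below the array medians, and the same limit applies to them. The responses of IFI27 differed between the lines by 3.38 ± 0.080.

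IFI35 was the only one of the 10 called lower with vemurafenib in the fit to all 12 arrays. In A375 it read 8.59, 8.56 and 8.58 with DMSO and 10.69, 10.84 and 10.68 with the drug, a rise of 2.16 ± 0.046 or 4.46-fold (adjusted p 1.51e-12). In A2058 it read 8.42, 8.42 and 8.45 with DMSO and 7.97, 8.02 and 8.05 with the drug. The A2058 drug arrays all lay below the DMSO arrays, 1.34-fold lower with a change of -0.42 ± 0.046 and an adjusted p of 1.85e-05. The difference between the responses was 2.58 ± 0.066. NMI, the protein that IFI35 binds, had the same signs, with changes of 1.03 ± 0.11 in A375 (adjusted p 8.3e-06) and -0.45 ± 0.11 in A2058 (adjusted p 0.00842).

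IFI44 and IFI44L lie next to each other on chromosome 1. IFI44 read 5.08, 5.16 and 4.93 in A375 with DMSO and 7.92, 8.11 and 8.29 with vemurafenib, a rise of 3.05 ± 0.080 or 8.29-fold (adjusted p 1.01e-11). IFI44L went from 5.0, 4.96 and 4.91 to 9.67, 9.92 and 9.90, a rise of 4.88 ± 0.059 or 29.3-fold (adjusted p 1.29e-14). IFI44L had the largest change of the 10 and rank 6 among the rises of all genes. In A2058 IFI44 read 5.37, 5.32 and 5.38 with DMSO and 5.37, 5.40 and 5.42 with the drug. IFI44L read 5.16, 5.15 and 5.12 with DMSO and 5.13, 5.12 and 5.18 with the drug. Both overlapped between the A2058 groups, and the changes of 0.043 ± 0.080 and -0.00031 ± 0.059 did not pass the test (adjusted p 0.815 and 0.998). The interval for IFI44L in A2058 was -0.13 to 0.13, with a mean of 5.14 in both groups, below the array medians. The responses differed between the lines by 3.01 ± 0.11 for IFI44 and 4.88 ± 0.084 for IFI44L.

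**Figure D3:**
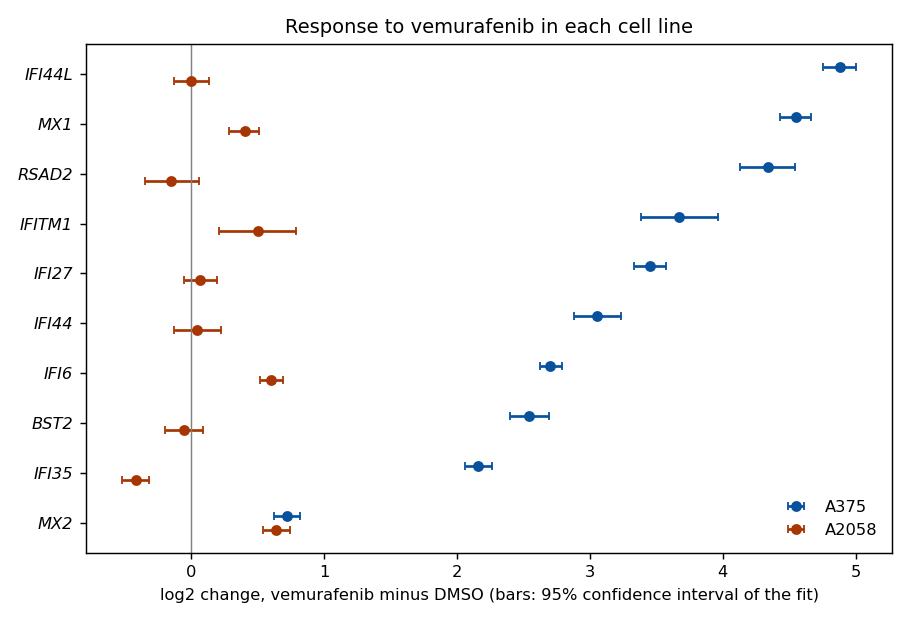
Change in log2 expression with vemurafenib (x axis) in A375 and A2058 for each of the 10 genes, with 95% intervals from the fit. The 2 lines nearly coincide for MX2, at 0.72 and 0.64, and lie far apart for the other genes, up to 4.88 and -0.00031 for IFI44L.

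Without the drug, in the DMSO controls, some of the 10 genes also differed between the lines. In A375 with DMSO against A2058 with DMSO, 5 of the 10 were called higher and 2 lower, against 23.9% and 22.5% of all genes, and the median difference was 0.069. IFITM1 differed by 2.06 ± 0.13 or 4.16-fold (adjusted p 4.32e-08) and IFI6 by 0.58 ± 0.038 (adjusted p 4.59e-08). MX2, BST2 and IFI35 were higher in A375 by 0.20, 0.21 and 0.15, and IFI44 and IFI44L were lower there by values of -0.30 and -0.19. MX1, RSAD2 and IFI27 did not pass the test, with differences of -0.14, -0.23 and -0.010. The count ran from 4 to 9 when single arrays were left out, and it was 4, with 3 higher and 1 lower, without A2058 DMSO replicate 1 and also without A2058 DMSO replicate 2. With arrays centred on their medians it was 3 higher and 3 lower. Between the treated groups all 10 were higher in A375, against 22.7% of all genes, by 0.27 ± 0.045 for MX2 (adjusted p 0.000196) to 5.23 for IFITM1, which is 37.5-fold. These comparisons share arrays with the drug comparisons above.

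**Figure D4:**
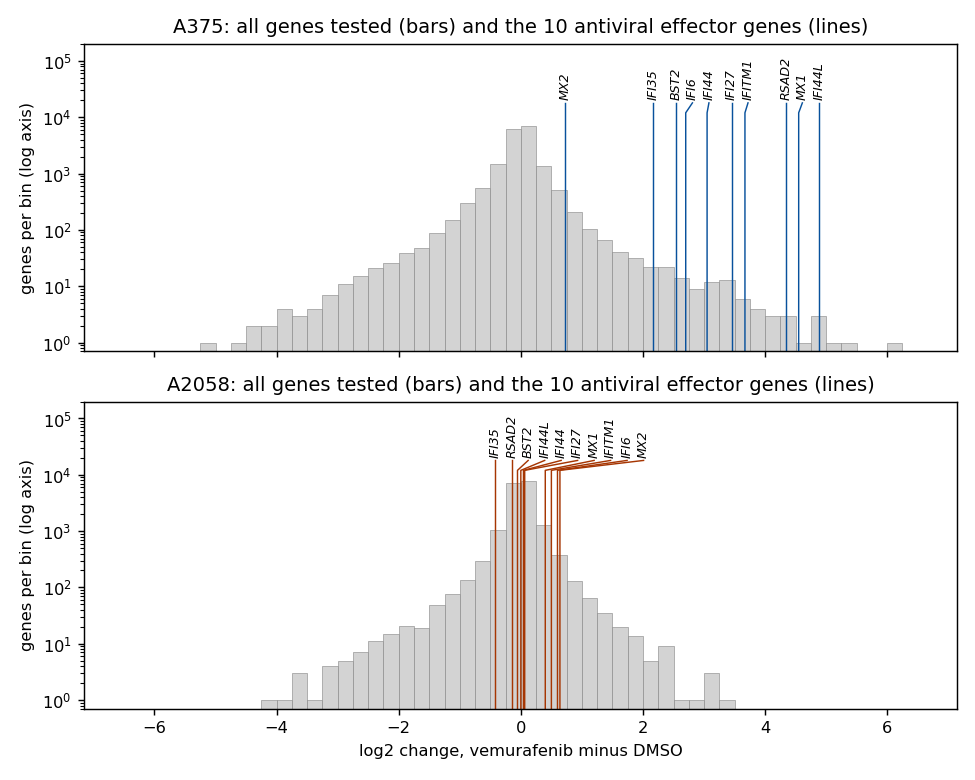
Histogram of the log2 change with vemurafenib (x axis) of 18404 genes in A375 and in A2058, with gene number on a log y axis and a line at each of the 10 genes. In A375 the lines lie to the right of 0, from 0.72 to 4.88, and in A2058 they lie on both sides of it, between -0.42 and 0.64.

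The remaining pathway was read from lists of named genes, chosen with earlier results known. Their counts stand beside 17.7% of all genes called higher and 19.3% lower in A375, and 14.6% and 12.5% in A2058. Of 21 listed interferon genes, 16 were measured. None of these passed the test in either line and none had an unadjusted p under 0.05 (limma). IFNB1, the interferon beta gene, changed by 2.6e-05 ± 0.038 in A375 and -0.017 ± 0.038 in A2058. Its group means of 4.07 to 4.09 lay below the lower quartiles of the arrays, which were 4.37 to 4.41. Differences are compressed there, so a change in its RNA could be missed. The interferon alpha genes are near-identical, so their probe sets may not tell them apart, and all changes of the list lay between -0.051 and 0.14 in A375 and between -0.062 and 0.083 in A2058. The arrays measured RNA only, so secreted interferon was not tested.

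Of 10 measured receptor and JAK-STAT genes, 4 were called higher and 3 lower in A375, with a median change of 0.10, and 6 higher and 2 lower in A2058, with a median of 0.26. IRF9, the DNA-binding subunit of ISGF3, rose in both lines, by 2.06 ± 0.042 in A375 (adjusted p 9.77e-13) and 0.72 ± 0.042 in A2058 (adjusted p 5e-08). The receptor chain IFNAR2 was called lower in both, at -0.41 ± 0.12 and -0.65 ± 0.12, and IFNAR1 changed by 0.061 ± 0.10 and 0.078 ± 0.10 without passing the test. IFNGR2, a chain of the interferon gamma receptor, was lower in both lines at -1.32 and -0.64, and IFNLR1, a chain of the lambda receptor, was lower in A375 at -0.60. IL10RB, which the lambda receptor shares, rose by 0.61 in A375, and the kinase gene JAK2 rose by 0.68 in A2058.

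Among 7 other interferon regulatory factors, 3 were higher and 1 lower in A375 and 1 higher and 1 lower in A2058, with medians of 0.18 and 0.018. IRF7, which drives interferon alpha genes, rose by 1.03 ± 0.11 in A375 (adjusted p 1e-05) and changed by 0.057 ± 0.11 in A2058 (adjusted p 0.831). IRF1 rose by 0.61 and IRF3 changed by -0.22 in A375, while IRF4, a lymphocyte and melanocyte factor, rose by 2.06 ± 0.10 and IRF2 changed by -0.45 in A2058. Of 12 negative regulators, 5 were higher and 2 lower in A375 (median 0.13) and 3 higher and 1 lower in A2058 (median 0.069). USP18, which shuts off signalling at IFNAR2 and is itself induced by interferon, rose by 3.27 ± 0.067 in A375 and was lower in A2058 at -0.20 ± 0.067 (adjusted p 0.0423). It was the only gene of the list called lower there, and that call was lost with the replicate block over both lines and in 5 settings that left out 1 array each. SOCS3 rose by 0.54 in A375 and 0.26 in A2058, PTPN2 and TRIM24 were lower in A375 at -0.40 and -0.24, and IRF2BP2 rose by 0.32 in A2058.

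Other genes that interferon induces moved together with the 10 in A375. Of 46 measured, 43 were called higher and none lower there, with a median of 2.09. The exceptions were ISG20, LAMP3 and GBP3, with changes of 0.095, -0.12 and 0.14. In A2058, 15 were higher and 5 lower, with a median of -0.013. The largest A375 rises were 6.0 for IFIT1 and 5.19 for XAF1. The largest A2058 rises were 0.99 for SAMD9L and 0.78 for SAMD9, and the largest falls there were -0.67 for LAMP3 and -0.49 for PARP12. The response was called larger in A375 for 45 of the 46, against 13.1% of all genes. Over the 46, the differences A375 minus A2058 ran from 0.13 to 5.72.

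Genes that share a family, or only the IFI name (IFI16 and IFI30), with some of the 10 moved in both directions in each line. Of 13 measured, 6 were higher and 3 lower in A375 (median 0.22) and 4 higher and 4 lower in A2058 (median -0.040). IFITM10 rose by 1.72 and 0.89 in A375 and A2058, IFITM2 by 0.75 and 0.49, and IFITM3 by 0.63 and 0.23. The dynamin genes DNM3 and DNM1, relatives of MX1 with a role in endocytosis, were lower in both lines, DNM3 at -1.26 and -0.59 and DNM1 at -0.65 and -0.38. IFI27L2 rose in both lines by 0.36 and 0.42, and IFI27L1 did not pass the test in either, with changes of 0.22 and -0.024.

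Among 27 other antiviral restriction factors, 18 were higher and 6 lower in A375 (median 0.79) and 8 higher and 3 lower in A2058 (median 0.039). SAMHD1, which depletes the nucleotides that HIV needs, rose by 3.58 ± 0.067 in A375, and TRIM22 rose by 3.11 ± 0.22. The cytidine deaminase genes APOBEC3G and APOBEC3C were lower in A375 at -1.10 ± 0.18 and -0.56 ± 0.049. The largest A2058 rises were 0.35 for SERINC5 and 0.29 for TRIM21, and the largest falls were -0.33 for MOV10 and -0.31 for LY6E. The A2058 split moved to 3 higher and 3 lower when arrays were centred on their medians.

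**Figure D5:**
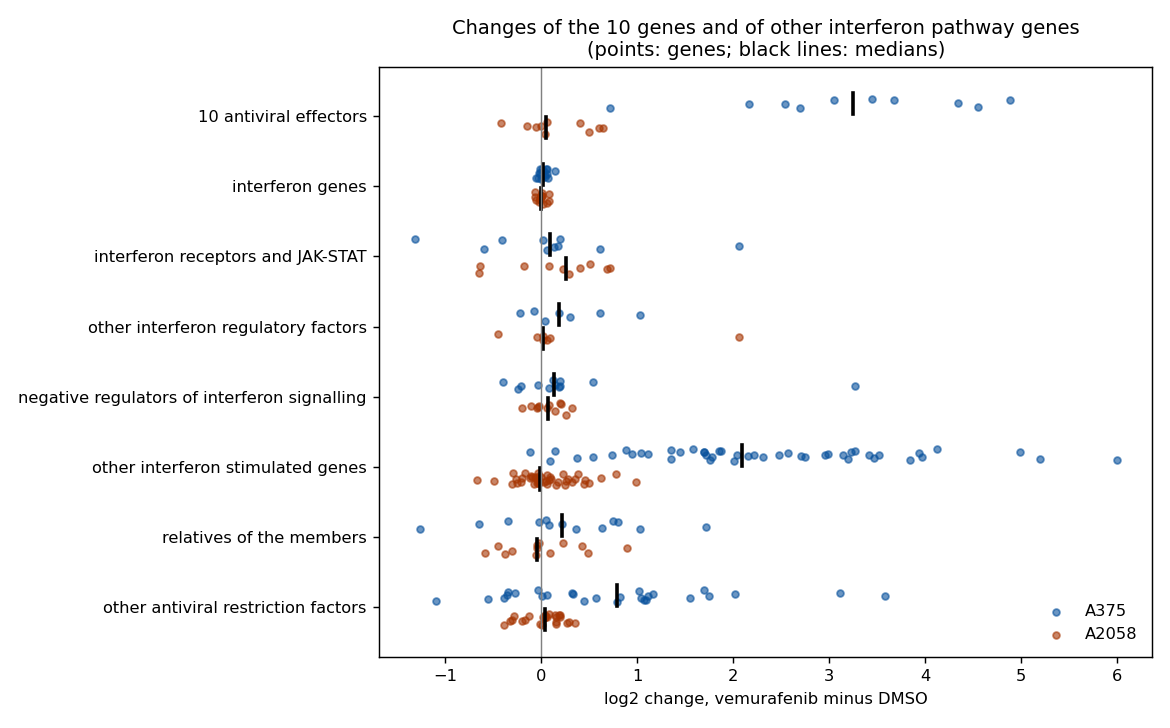
Log2 change with vemurafenib (x axis) of each measured gene in the 10 antiviral effectors and the 7 lists, in A375 and A2058; points are genes and the bar is the list's median. The 10 genes and the 46 other interferon-induced genes lie to the right in A375, with medians of 3.25 and 2.09, and around 0 in A2058, while the 16 interferon genes lie near 0 in both.

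For each of the 10, the gene with the most similar profile was taken as that with the smallest root mean square difference between the 4 group means, after centring each gene on its own mean, among 18403 others. It was ANGPTL7 for MX1 (0.054), TAC1 for RSAD2 (0.089), TLR3 for BST2 (0.073), UBD for IFITM1 (0.43), C1R for IFI6 (0.086), ABI3BP for IFI27 (0.073), PCSK5 for IFI35 (0.13), RASGRP3 for IFI44 (0.073) and ARSL for MX2 (0.049). Only IFI44L had another of the 10 as its nearest, RSAD2 at 0.23. The member nearest to MX2 was IFI35 at 0.87, and that nearest to IFITM1 was IFI44L at 0.83. These distances rest on 4 means that the genes share and carry no test.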

How the data were processed

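The authors deposited 1 table of log2 expression values for 32321 probe sets on 12 arrays, made with R 3.0.1 and affy according to the submitters' processing notes. How the arrays were background corrected and normalized is not given in the sources used here. The platform annotation gave 1 symbol to 19158 probe sets, several to 1388 and none to 11775. Of the 19158, 19128 matched RefSeq by Entrez number. Where a gene had several (637 genes), the brightest on average was kept, which left 18404 genes. No array repeated another (0 identical pairs).

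Changes were fitted with limma 3.58.1 in R 4.3.3 on all 12 arrays as 4 group means with a shared spread (lmFit and eBayes, 2-sided), with Benjamini-Hochberg adjustment over all genes and calls at an adjusted p under 0.05. Errors are SEs of the fit, and 3 arrays a group limit the precision. The script was tested on simulated data. Arrays with the same replicate number were checked for shared deviations. Genes named beside the 10 were, from each list, the 2 largest called rises and falls in each line, the nearest profile of each member, and IRF9, IRF7, IFNAR1, IFNAR2 and IFNB1, plus a few relatives and markers named after their values were seen. Promoter strings were searched in RefSeq windows. The members and lists were chosen with earlier results of these data known. Alternatives were centring, renewed quantile normalization, array weights, other moderation, filters and probe set rules, fewer arrays and a replicate block.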

Additional observations from a re-analysis of the deposited data

Results flagged for a closer look

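The response to vemurafenib differed between the lines for 9 of the 10 genes by the interaction term of the fit (limma, adjusted over 18404 genes, of which 13.1% had a larger change in A375). A375 minus A2058, the difference in log2 change was 4.88 for IFI44L, 4.49 for RSAD2, 4.15 for MX1, 3.38 for IFI27, 3.17 for IFITM1, 3.01 for IFI44, 2.60 for BST2, 2.58 for IFI35 and 2.10 for IFI6. The adjusted p-values of these 9 ran up to 5.99e-08, for IFITM1. For IFI35 and RSAD2 the drug arrays lay above the DMSO arrays in A375 and below them in A2058, though the A2058 change of RSAD2 did not pass the test. The difference for MX2 was 0.079 and did not pass the test.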

How the results depend on the processing

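The number of the 10 genes called stayed at 10 with vemurafenib in A375, 9 for the difference of the responses and 10 between the treated lines in every alternative run, and lay between 4 and 6 in A2058, where it was 5. Between the DMSO groups it was 7 and ran from 4 to 9 without single arrays. It was 6 (3 higher, 3 lower) with centred arrays, and 9 (5 higher, 4 lower) with renewed quantile normalization or array weights. There BST2, IFI35 and IFI44L lost their call in 5, 4 and 3 settings and MX1 and RSAD2 gained one in 7 and 6. Over single genes and settings, 1030 values kept their call or lack of one, 16 gained a call and 14 lost one; the cause was not tested. The sign changed for 0 called values, while some uncalled ones near 0 changed theirs, such as BST2 in A2058 (-0.11 to 0.0096). Deviations of same-numbered DMSO and drug arrays correlated at -0.20 to 0.10, and those of differently numbered arrays at -0.28 to 0.26. With 3 arrays a group, this cannot show whether the arrays were paired. With the replicate block the member counts stayed at 10 in A375 and 5 in A2058. Negative regulators called in A375 went from 7 to 4 with the block within that line, and in A2058 from 4 to 2 with the block over both lines or without A2058 DMSO replicate 2 or 3, A2058 vemurafenib replicate 3 or A375 DMSO replicate 2, and to 1 without A2058 vemurafenib replicate 2. Restriction factors called in A2058 went from 11 to 6 with centred arrays, to 7 without A2058 DMSO replicate 2 and to 6 without A2058 vemurafenib replicate 1. Values near the lower quartile of the arrays, such as RSAD2 with DMSO, limit what a fold change shows.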

Other observations

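The genes beside the 10 on their chromosomes, in the RefSeq order of protein-coding genes, moved in both directions in A375. Of 16 such neighbours that are not among the 10, 14 were measured, and with vemurafenib 6 were called higher and 4 lower in A375, against 17.7% and 19.3% of all genes. In A2058, 6 were higher and none lower (limma, adjusted p under 0.05), against 14.6% and 12.5% of all genes. IFITM2, IFITM3 and IFI27L2, called higher in both lines, were already counted among the relatives above. CMPK2 was already counted among the other interferon-induced genes. CMPK2, a nucleotide kinase gene next to RSAD2 that interferon is also known to induce, rose by 2.04 ± 0.10 in A375 (adjusted p 4.9e-09) and changed by -0.17 ± 0.10 in A2058 (adjusted p 0.298). RNF144A, on the other side of RSAD2, rose in both lines by 0.65 and 0.58. VAT1, beside IFI35, moved opposite to it in each line, with changes of -0.71 in A375 and 0.48 in A2058. MVB12A, beside BST2, was lower in A375 at -0.56. ADGRL4, which follows IFI44, was lower in A375 at -0.40, while PTGFR, on the far side of IFI44L, changed by -0.026 there without passing the test. These genes were named after their values were seen.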
